A study of Homo sapiens with 36 samples.

Results

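SB203580, a pyridinyl imidazole inhibitor of the p38 mitogen-activated protein kinases, was compared with vehicle in THP-1 cells that all received the HIV-1 envelope glycoprotein gp120 for 4 h. THP-1 is a human monocytic leukaemia line, and every sample came from this 1 line. The 6 arrays compared, of 36 in the series, were chosen by their titles: 3 of cells given SB203580 and gp120 for 4 h, and 3 of cells given gp120 for 4 h. Per the study's design, SB203580 was given at 10 µM for 15 min before gp120 of the strain SF162 at 1 nM, and 0.1% DMSO and 0.001% BSA were the vehicles for the inhibitor and for gp120. The series held 12 groups of 3 biological replicates, made of control, gp120 or LPS (1 µg/ml), each with and without SB203580, at 4 h and 24 h, and RNA was measured with Illumina bead arrays (HumanHT-12 v4). The labels do not say whether the replicates came from separate cultures, so the p-values measure the spread between these samples.

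The p38 kinases are activated by cytokines, microbial products and stress. They act through the kinases MK2 and MSK1, among others, and through them on transcription and on the stability and translation of mRNAs that carry AU-rich elements, among them those of TNF and IL1B. In monocytes this pathway is known for sustaining cytokine production, and it also feeds back on its own upstream kinases and on the ERK and JNK branches. SB203580 binds the ATP site of p38 alpha and beta and is known to act on a few other kinases as well. HIV-1 gp120 binds CD4 on the cell surface.

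The 12 arrays of each of 3 slides held 4 groups each. The 3 gp120 arrays lay on slide 2, with the 4 h control and the 24 h groups of SB203580 plus gp120 and SB203580 plus LPS. The 3 SB203580 plus gp120 arrays lay on slide 3, with the 4 h groups of SB203580, LPS and SB203580 plus LPS. In the comparison itself, slide and treatment therefore cannot be told apart. A gene was called low on slide 2 when the highest mean among the 4 groups of that slide was below the lowest mean among the 8 other groups, and such genes are reported apart below. Of 13582 genes tested, 220 were low on slide 2 (1.62%) and 49 met the mirrored rule. Levels are normalized log2 intensities, and a difference is SB203580 plus gp120 minus gp120 on that scale. A gene was called at a Benjamini-Hochberg adjusted p under 0.05 in limma's test, fitted to all 36 arrays.

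On the 6 arrays the mean raw intensity was 648 to 1214, and 39.9% to 43.3% of probes were detected. The lowest correlation of an array with another of its group was 0.973. Of 15 monocytic markers tested, 13 were detected on all 6 arrays, among them CD14, CSF1R, LYZ and CD4, while MPO was detected on 1 and the PTPRC probe on none. None of the 5 T cell markers tested was detected on all 6. Of 4 NK cell and 4 B cell markers tested, 3 and 2 were detected on all 6 arrays. No marker of these lists was called. MAPK14, which encodes p38 alpha, had no probe named for it here and was not analysed.

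In total 25 genes were called (0.184% of genes tested), of which 20 were higher with SB203580 (0.147%) and 5 were lower (0.0368%). Of the 20 higher genes, 11 were low in all 4 groups of slide 2, and 9 were not. The 9 comprised the transcription factor gene EGR1, the receptor gene GPR84, the pseudokinase gene TRIB3 and SLC2A10, CABIN1, PCDHB14, ADAMTS14, ST3GAL5 and SERTAD2. The 5 lower genes were AP5B1, NIPSNAP3B, ARID4B, ZBTB43 and TTC22. Without an adjustment, 1152 genes had a p under 0.05 (8.48%). The 3 arrays of one group lay wholly above or below the 3 of the other for all 25 calls, beside 1698 of all genes (12.5%), 947 of them higher (6.97%) and 751 lower (5.53%). In RNA from whole cultures, fewer cells that express a gene and less RNA per cell cannot be told apart. The calls rest on the spread pooled over all groups: with only the 6 arrays compared in the fit, 0 genes were called and 955 had a p under 0.05. With slide as a term 46 were called (0.339%), none of them among the 25, and the median SE was 0.41 rather than 0.23. That model assumes that the inhibitor's change from 4 h to 24 h is the same for each stimulus, LPS among them. A departure from this would enter the slide term, so the 46 are not the 25 corrected for slide alone. Without SB203580 plus gp120 replicate 1, 49 genes were called, 16 higher and 33 lower, and without replicate 3 of that group or of the gp120 group 14 and 13 were called.

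**Figure D1:**
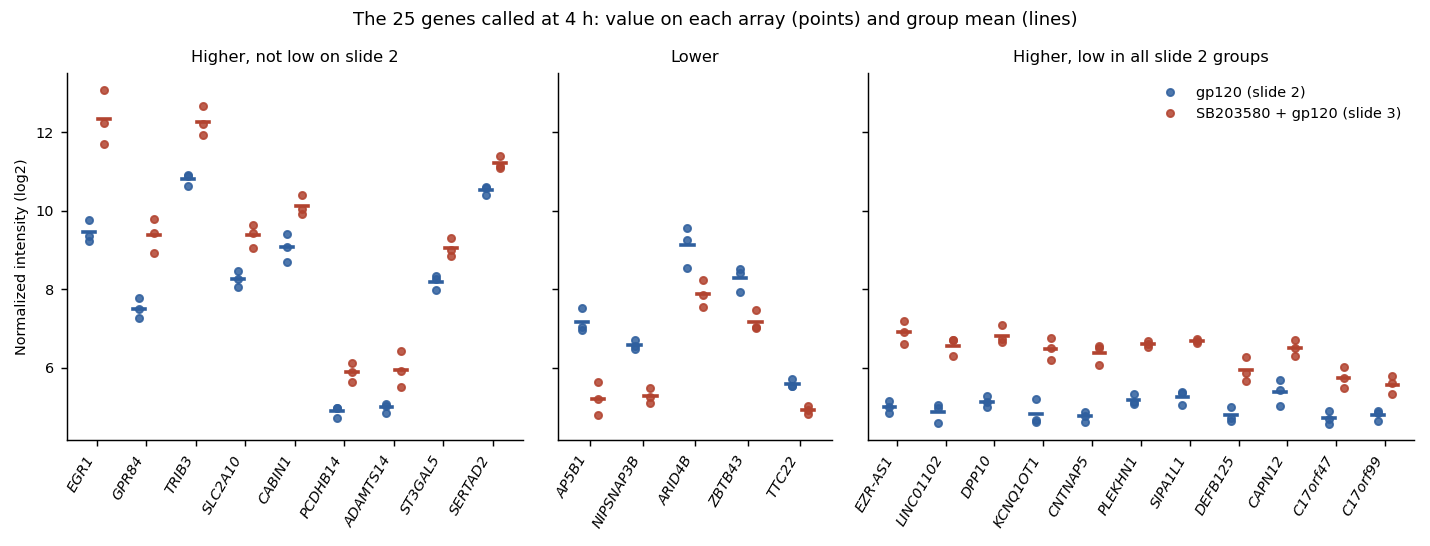
Normalized log2 intensity of the 25 called genes on each of the 6 arrays (points) with the group mean (line), gp120 in blue and SB203580 plus gp120 in red, in 3 panels: 9 higher genes not low on slide 2, 5 lower genes, and 11 higher genes low in all groups of slide 2. The 2 groups do not overlap for any of them, and the 11 genes of the right panel lie at the low end of the scale.

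EGR1, an immediate-early zinc-finger transcription factor induced through serum response factor and ERK signalling, had the largest difference of any gene tested. Its level was 12.25, 11.70 and 13.08 on the 3 arrays with SB203580 and gp120, and 9.78, 9.23 and 9.36 on the 3 with gp120. Every inhibitor array was above every gp120 array,, and each group's own range was narrower than the distance between the group means. The difference was 2.89 (SE 0.380, 7.41-fold, adjusted p = 9.68e-05). The promoter of EGR1 is shown here because it holds a pair of CArG boxes, the sequence that serum response factor binds, which is an uncommon feature. The window is chr5:138465229-138465528 of GRCh38.p14, plus strand, from 250 bases before to 50 bases after the RefSeq start, with the CArG boxes and 5-letter half-sites of the cyclic AMP response element in capitals.
EGR1: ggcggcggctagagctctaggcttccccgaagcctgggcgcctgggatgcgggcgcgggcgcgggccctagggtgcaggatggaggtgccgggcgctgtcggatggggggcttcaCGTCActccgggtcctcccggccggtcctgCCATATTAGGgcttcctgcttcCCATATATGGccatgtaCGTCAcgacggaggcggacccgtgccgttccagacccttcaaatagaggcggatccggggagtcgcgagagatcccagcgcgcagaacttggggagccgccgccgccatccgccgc
The CArG boxes start 105 and 83 bases before the start of transcription, and the half-sites (TGACG, read on both strands) 135 and 66 bases before it. A CArG box was found in 1.29% of the 35116 RefSeq windows and a half-site in 24.6%. Of 8 of the 9 genes that had a window, EGR1 was the one with a CArG box.

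The EGR site GCGGGGGCG, searched on both strands, is what the EGR1 protein is known to bind, and it was present in the windows of SLC2A10, CABIN1 and SERTAD2. Counted by gene, it was present for 3 of the 8 higher genes with a window and for 1 of 5 lower genes (AP5B1). Of 8 genes low on slide 2 with a window, it was present for 0. A gene counted if any of its windows held the site, and TRIB3 and ST3GAL5 have 3 and 5 windows. Counted by window, the site was present in 5.07% of all windows, which is not the same measure as the shares by gene. The motifs were chosen after the calls were known, and a match describes letters, not binding. The stretches around the 3 sites are printed with the site in capitals, on GRCh38.p14 at chr20:46709602-46709660 (plus strand), chr22:24011221-24011279 (plus strand) and chr2:64653962-64654020 (minus strand).
SLC2A10: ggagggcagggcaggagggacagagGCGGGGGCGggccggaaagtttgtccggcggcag
CABIN1: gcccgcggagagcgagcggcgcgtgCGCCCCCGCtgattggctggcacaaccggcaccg
SERTAD2: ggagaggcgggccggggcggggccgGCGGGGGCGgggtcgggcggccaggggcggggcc

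GPR84 encodes a Gi-coupled receptor of myeloid cells for medium-chain fatty acids. Its level was 9.79, 8.93 and 9.44 with the inhibitor and 7.77, 7.50 and 7.27 without it, so that the lowest inhibitor array was above the highest gp120 array. The difference was 1.87 (SE 0.337, adjusted p = 0.00583). TRIB3, a pseudokinase induced by ATF4 and CHOP in amino-acid and endoplasmic reticulum stress, was at 12.22, 11.94 and 12.67 with SB203580 and at 10.63, 10.90 and 10.89 without. The TRIB3 difference was 1.47 (SE 0.254, adjusted p = 0.00402). Without replicate 3 of the gp120 group the GPR84 difference was 1.75 with an adjusted p of 0.076, and without replicate 3 of the SB203580 plus gp120 group that of TRIB3 was 1.27 with an adjusted p of 0.063. With arrays scaled to equal medians, EGR1 was the only one of the 9 higher genes that kept its call, with GPR84 at 1.58 (adjusted p = 0.331) and TRIB3 at 1.13 (adjusted p = 0.551). With slide as a term, the differences were 1.90 for EGR1 (adjusted p = 0.205), 2.43 for GPR84 (adjusted p = 0.0541) and 1.29 for TRIB3 (adjusted p = 0.198).

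SLC2A10, which encodes the facilitative glucose transporter GLUT10, was at 9.65, 9.05 and 9.43 with the inhibitor and at 8.46, 8.28 and 8.07 without it. The lowest inhibitor array was above the highest gp120 array, and the difference was 1.11 (SE 0.226, adjusted p = 0.023). A second detected probe for SLC2A10 differed by 0.75. ST3GAL5, the GM3 ganglioside synthase, rose by 0.86 (SE 0.167, adjusted p = 0.0145), and its second detected probe differed by 0.62. CABIN1, a calcineurin-binding protein, rose by 1.05 (SE 0.206, adjusted p = 0.0157), with the inhibitor arrays at 9.92 to 10.41 and the gp120 arrays at 8.69 to 9.42. SERTAD2, a transcriptional co-regulator, had the smallest rise of the 9 and among the highest levels, 11.09 to 11.39 against 10.40 to 10.60 (difference 0.68, adjusted p = 0.0439). With 1 of the 6 arrays left out, SERTAD2 lost its call in 5 of 6 fits, SLC2A10 in 4, and CABIN1 and ST3GAL5 in 3.

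PCDHB14, a clustered protocadherin, and ADAMTS14, a procollagen-processing metalloproteinase, were near the limit of detection. Both were detected on 2 of the 3 inhibitor arrays and on no gp120 array, so that PCDHB14 was at least 1.22-fold higher (adjusted p = 0.00235) and ADAMTS14 at least 1.27-fold higher (adjusted p = 0.018). Such a bound sets the mean of the brighter group against the lowest signal among detected probes, or the dim probe's own signal where higher, on each array of the dimmer group. The PCDHB genes are close paralogs, and whether the probe also reads others was not tested. The PCDHB14 probe was detected on 3 of all 36 arrays, 2 of them inhibitor arrays. It thus passed the filter of at least 3 arrays only through the group where it is high. ADAMTS14 lost its call in 4 of the 6 fits with 1 array left out, and PCDHB14 in 0. The genes tested were the same in each of these fits, so they do not bear on that filter.

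Among the 5 lower genes, AP5B1, a subunit of the endosomal adaptor complex AP-5, fell most. It was at 5.65, 4.81 and 5.20 with SB203580 and at 7.04, 7.53 and 6.96 without, a difference of -1.96 (SE 0.341, adjusted p = 0.00402). It was detected on all 3 gp120 arrays and on 1 of the 3 inhibitor arrays. NIPSNAP3B was detected on the 3 gp120 arrays and on no inhibitor array, and was at least 1.89-fold lower (adjusted p = 0.017). ARID4B, a subunit of the SIN3A histone deacetylase complex, had a difference of -1.25 (SE 0.256, adjusted p = 0.0253). Its other detected probes differed by 0.31 and -0.34, so the fall of ARID4B was seen with the brightest of 3 probes. ZBTB43, a zinc-finger protein, had a difference of -1.13 (SE 0.244, adjusted p = 0.0439). TTC22 was not well above background on the 3 inhibitor arrays and was detected on 2 of the 3 gp120 arrays (adjusted p = 0.0447). Its probe was detected on 3 of all 36 arrays, so it passed the detection filter only through the group where it is high. With 1 array left out, AP5B1 lost its call in 0 of 6 fits, NIPSNAP3B, ARID4B and ZBTB43 in 4 and TTC22 in 5, and with equal array medians AP5B1 alone of the 5 kept it.

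The remaining 11 calls were all higher with SB203580 and all low in the 4 groups of slide 2, where the gp120 arrays lay. The slide 2 rule itself makes such genes higher in this comparison. They were the antisense and intergenic long RNAs EZR-AS1, KCNQ1OT1 and LINC01102, and DPP10, CNTNAP5, PLEKHN1, SIPA1L1, DEFB125, CAPN12, C17orf47 and C17orf99. On the gp120 arrays 10 of the 11 were undetected on all 3, and CAPN12 was detected on 1. EZR-AS1 was at 7.19, 6.60 and 6.92 with the inhibitor and at 5.15, 4.85 and 4.99 without, at least 2.46-fold higher (adjusted p = 3.62e-05). DPP10, an auxiliary subunit of Kv4 potassium channels, was at least 2.32-fold higher (adjusted p = 0.000141), SIPA1L1, a Rap GTPase-activating protein, at least 2.10-fold (adjusted p = 0.00196) and PLEKHN1 at least 2.00-fold (adjusted p = 0.00196). LINC01102 was at least 1.94-fold higher (adjusted p = 0.00196), KCNQ1OT1 at least 1.83-fold (adjusted p = 0.00402) and CNTNAP5 at least 1.72-fold (adjusted p = 3.62e-05). With 1 array left out, DEFB125 lost its call in 6 of 6 fits, C17orf99 in 5, CAPN12 in 3 and C17orf47 in 2, and the other 7 in 0.

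The levels in the other groups followed the slide, as the rule that set these 11 genes apart requires of the group means. EZR-AS1 had group means of 4.88 to 5.08 in the 4 groups of slide 2, and of 6.20 to 6.90 in the 8 others. Within slide 3, the 4 h LPS group, which had no inhibitor, was at 6.47 ± 0.20 (SD, n = 3), beside 6.54 ± 0.20 with SB203580 alone. DPP10 was at 5.14 to 5.52 on slide 2 and at 6.69 to 6.95 on the other slides. The gap between the slide 2 groups and the rest was 1.17 for DPP10, 1.12 for EZR-AS1, 0.93 for PLEKHN1 and 0.72 for SIPA1L1. The smallest gaps among the 11 were 0.19 for C17orf99 and 0.06 for CAPN12, and just outside the rule lay ADAMTS14 at -0.14 and PCDHB14 at -0.34, where a negative gap is an overlap of group means. With slide as a term in the model, none of the 11 was called, and EZR-AS1, DEFB125 and C17orf47 were lower with the inhibitor (-0.72, -0.999 and -0.86).

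**Figure D2:**
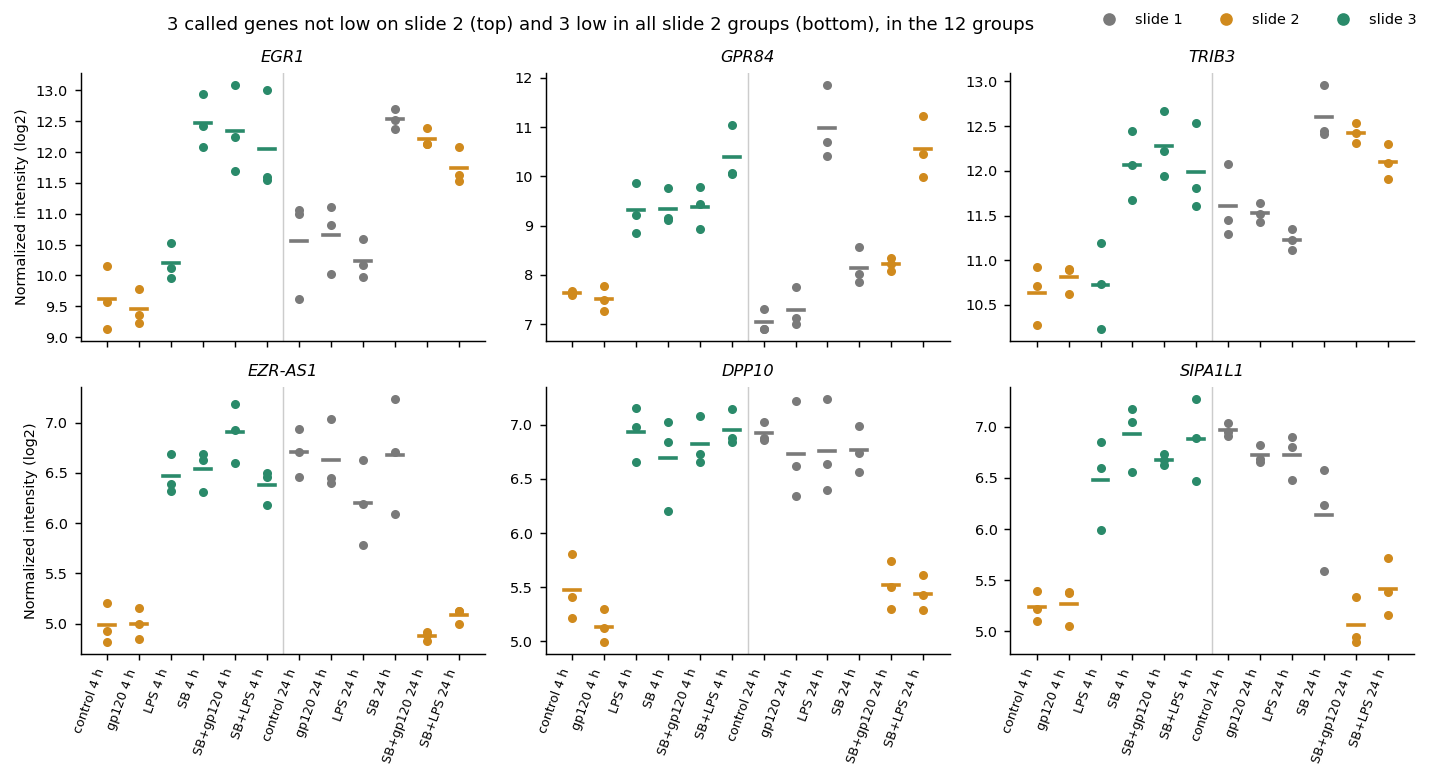
Normalized log2 intensity of EGR1, GPR84 and TRIB3 (top) and of EZR-AS1, DPP10 and SIPA1L1 (bottom) in the 12 groups, 3 arrays each (points) with the mean (line), coloured by slide. EGR1 and TRIB3 are higher with SB203580 within slides 1 and 3. The 3 genes at the bottom are low in the 4 groups of slide 2 whatever the treatment, which is the rule by which they were set apart.

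The inhibitor was also compared with its absence in 4 other pairs of groups, none of which shares an array with the comparison described. SB203580 against control at 4 h lay on the same slides 3 and 2, so that a slide difference would enter both in the same direction. SB203580 plus LPS against LPS at 4 h lay within slide 3, and SB203580 against control at 24 h within slide 1. SB203580 plus gp120 against gp120 at 24 h lay on slides 2 and 1. For SB203580 against control at 4 h 19 genes were called (0.14%), of which 18 were higher, and 59 with the replicate pairing described below (0.434%). The within-slide comparisons had 294 calls with LPS at 4 h (2.16%) and 124 at 24 h (0.913%), and the 24 h comparison with gp120 had 630 (4.64%). The last of these had 0 calls in limma's test with slide as a term (smallest adjusted p = 0.059, 534 genes with an unadjusted p under 0.05), so its adjusted p-values below hold without that term.

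EGR1 was higher with SB203580 in each of these comparisons. The difference was 2.86 against control at 4 h (adjusted p = 0.000255), 1.85 with LPS at 4 h (adjusted p = 0.0087), 1.97 against control at 24 h (adjusted p = 0.0048) and 1.56 with gp120 at 24 h (adjusted p = 0.0183). Its level was 10.20 ± 0.29 (SD, n = 3) in the 4 h LPS group on slide 3 and 12.05 ± 0.83 with the inhibitor added on the same slide. TRIB3 was higher by 1.43 against control at 4 h (adjusted p = 0.00976) and by 1.26 with LPS at 4 h (adjusted p = 0.00729). At 24 h TRIB3 differed by 1.00 against control (adjusted p = 0.0511, and 0.0126 with the replicate pairing) and by 0.90 with gp120 (adjusted p = 0.0379).

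GPR84 was higher by 1.71 against control at 4 h (adjusted p = 0.021). It differed by 1.08 with LPS at 4 h (adjusted p = 0.0845, paired 0.00165) and by 1.10 against control at 24 h (adjusted p = 0.142, paired 0.00105). With gp120 at 24 h it differed by 0.92 (adjusted p = 0.109, paired 0.00374). Here paired means with the replicate pairing described below, and the other values are unpaired. GPR84 was at 9.31 ± 0.52 (SD, n = 3) in the 4 h LPS group, and at 9.39 ± 0.43 with SB203580 plus gp120 on the same slide. SLC2A10 was higher by 1.42 with LPS at 4 h (adjusted p = 0.000619) and by 0.96 with gp120 at 24 h (adjusted p = 0.0143), and differed by 0.82 and 0.85 against control at 4 h and 24 h (adjusted p = 0.245 and 0.0673). SERTAD2 was higher at 24 h by 0.73 against control (adjusted p = 0.00742) and by 1.02 with gp120 (adjusted p = 0.000111), and differed by 0.61 against control and 0.32 with LPS at 4 h (adjusted p = 0.119 and 0.309). ST3GAL5 was higher by 0.88 against control at 4 h (adjusted p = 0.0166) and by 0.95 with gp120 at 24 h (adjusted p = 0.00112). In the within-slide comparisons ST3GAL5 differed by 0.55 with LPS at 4 h (adjusted p = 0.0762, paired 0.039) and by 0.62 against control at 24 h (adjusted p = 0.0721, paired 0.0297). For SLC2A10 the paired values against control were 0.0241 at 4 h and 0.00334 at 24 h. For SERTAD2 at 4 h they were 0.0229 against control and 0.139 with LPS.

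CABIN1 differed by 0.77 and 0.41 in the other comparisons at 4 h and by 0.08 and 0.02 at 24 h, with no unpaired call. With the pairing it was called against control at 4 h (adjusted p = 0.0229). PCDHB14 differed by -0.22 to 0.17 in the 4 other comparisons, and ADAMTS14 by -0.21 to 0.53. Among the lower genes, AP5B1 was also called against control at 4 h (-1.61, adjusted p = 0.0422), and was -0.51, 0.84 and -0.63 in the other 3. The differences of NIPSNAP3B, ARID4B, ZBTB43 and TTC22 were -0.86 to 0.41 in the other comparisons, with no unpaired call. With the pairing, ARID4B alone of these was called, with LPS at 4 h (-0.86, adjusted p = 0.047). Of the 9 higher genes not low on slide 2, 7 had a positive difference in all 4 other comparisons (77.8%), and of the 5 lower genes 1 had a negative one in all 4. For all genes higher and lower in the main comparison these shares were 15.1% and 14.8%, with genes low on slide 2 left in. Of the 11 higher calls low on slide 2, 0 had a positive difference with gp120 at 24 h, as the slide 2 rule requires. Setting them apart therefore raises the share of the higher calls, and it is not on the same footing as that of all genes. Over the 13582 genes the differences correlated at Pearson r = 0.56 with those of SB203580 against control at 4 h, which has the same slides, at 0.19 with those of LPS at 4 h, and at 0.08 and 0.03 with those of 24 h without and with gp120. These are correlations across genes, which are not independent replicates.

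**Figure D3:**
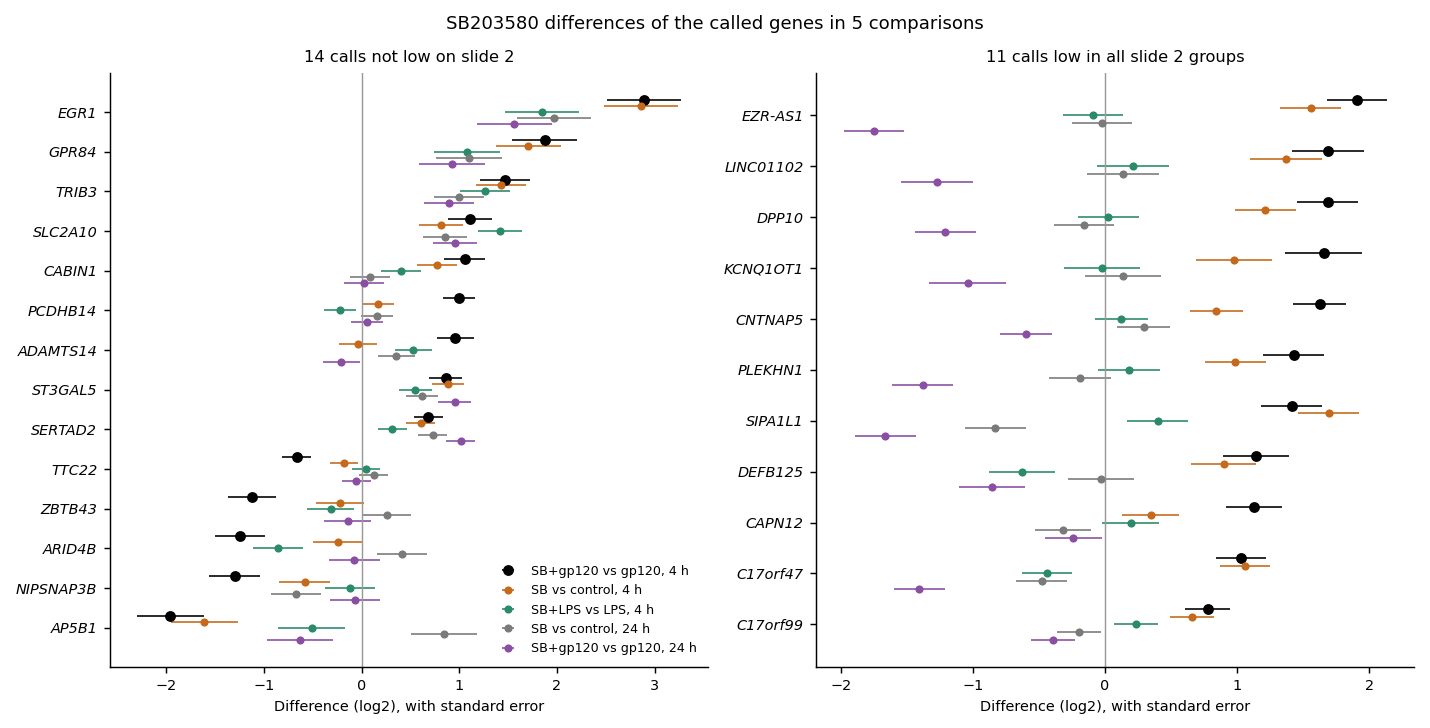
Difference with its standard error (log2) for the 25 called genes in 5 comparisons with and without SB203580, the 14 not low on slide 2 at left and the 11 low in all slide 2 groups at right. EGR1, GPR84, TRIB3, SLC2A10, ST3GAL5 and SERTAD2 lie to the right of 0 in all 5. The 11 genes at right lie between -0.83 and 0.40 in the within-slide comparisons. With gp120 at 24 h, where the inhibitor group was on slide 2, they lie to the left of 0, as the slide 2 rule requires.

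Arrays of the same replicate number deviated together from their group means. The deviations correlated at 0.54, 0.13 and 0.56 over genes for replicates 1, 2 and 3. Between different numbers the correlations were -0.54 to 0.12, the highest between SB203580 plus gp120 replicate 2 and gp120 replicate 3, so that replicate 2 stood barely apart from it. Every same-number correlation was over 0.1, but so was that of this different-number pair, so the check rests on replicates 1 and 3. The 3 deviations of a group cancel out for each gene. The correlations are thus tied to one another, and replicates 1 and 3 are not separate checks. The check also used the same values that were then tested with the pairing. On it the numbers were taken to pair the samples, and the replicate within each time was entered as a block. With it 101 genes were called (0.744%), of which 72 were higher (0.53%) and 29 lower (0.214%), and all 25 calls were kept. Of the 101, 20 were low on slide 2, 52 of the others were higher and 29 lower. Leaving out 1 array at a time moved the paired count from 35 without gp120 replicate 3 to 151 without SB203580 plus gp120 replicate 1.

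GDF15, a stress-induced member of the TGF-beta family, was at 8.36, 7.58 and 8.23 with the inhibitor and at 6.95, 5.45 and 5.71 without. The difference was 2.02, with an adjusted p of 0.00466 paired and 0.0685 unpaired. IL1B, the interleukin-1 beta gene, was at 10.38, 10.38 and 9.50 with the inhibitor and at 8.88, 8.69 and 7.03 without. Replicate 3 was the lowest array in both groups, and the within-pair differences were 1.50, 1.70 and 2.47. The IL1B difference was 1.89, with an adjusted p of 0.0277 paired and 0.185 unpaired. TNF was at 10.66, 11.06 and 11.65 with the inhibitor and at 10.07, 9.90 and 9.37 without, which made a difference of 1.34 with an adjusted p of 0.0415 paired and 0.231 unpaired. In the paired fit with 1 array left out, GDF15 kept its call in 5 of 6 fits, IL1B in 2 and TNF in 1.

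TNFAIP3, which encodes the NF-kB inhibitor A20, rose in the paired fit by 1.21 (adjusted p = 0.00812, unpaired 0.171). PLAUR, the urokinase receptor, rose by 1.32 (adjusted p = 0.0119, unpaired 0.0841), and its other detected probes differed by 1.22 and 0.37. TRIB1, a pseudokinase relative of TRIB3, rose by 1.36 (adjusted p = 0.0246, unpaired 0.243), with pair differences of 0.95, 0.90 and 2.24. SLAMF8, a myeloid surface receptor of the SLAM family, rose by 1.43 (adjusted p = 0.00265, unpaired 0.0897). SPRY4, a feedback inhibitor of receptor tyrosine kinase signalling, was undetected on the gp120 arrays and at least 1.39-fold higher (paired adjusted p = 0.0487). TUBB3, METRNL and ZCCHC24 rose by 1.56, 1.49 and 1.29 (paired adjusted p = 0.00163, 0.00733 and 0.00025). A second detected METRNL probe differed by 0.78. With 1 array left out, the paired call was kept in 2 of 6 fits for TRIB1, 1 for SPRY4, 3 for METRNL, and 6 for SLAMF8, TUBB3 and ZCCHC24.

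Some other genes called in the paired fit fell outside the rule for named genes and were picked after their values were seen. NAB2, a co-repressor that binds EGR proteins, rose by 1.14 (paired adjusted p = 0.0148, unpaired 0.0744). CSRNP1, an immediate-early nuclear protein, rose by 0.90 (paired adjusted p = 0.0121, unpaired 0.196). NRP1, a co-receptor for semaphorins and VEGF, rose by 1.18 (paired adjusted p = 0.0121, unpaired 0.443). PHLDA1 rose by 1.18 and TNFRSF12A, the receptor for TWEAK, by 1.31 (paired adjusted p = 0.0113 and 0.0153).

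The lower genes of the paired fit were mostly of low to middle intensity. NXPE3, NUDT12 and CROT were undetected on the inhibitor arrays and detected on all 3 gp120 arrays, and were at least 1.84-, 1.54- and 1.63-fold lower (paired adjusted p = 0.0233, 0.0156 and 0.0444). CREBRF, RINL, LNPK and CCDC47 had differences of -1.24, -1.20, -1.10 and -1.09 (paired adjusted p = 0.0396, 0.0178, 0.036 and 0.0317). A second detected probe differed by -1.04 for CREBRF and by -0.21 for LNPK. NDUFA10, a subunit of respiratory complex I, had a difference of -0.85 (paired adjusted p = 0.0361), while its other detected probe differed by 0.39. IFIT1, an interferon-induced antiviral protein, was at 8.04, 8.24 and 7.11 with the inhibitor and at 9.46, 9.35 and 7.41 without. The groups overlapped, since replicate 3 was low in both, and the difference was -0.95 (paired adjusted p = 0.0429, unpaired 0.71). A second detected IFIT1 probe differed by -0.06. With 1 array left out, the paired call was kept in 0 of 6 fits for CROT, 1 for CREBRF, LNPK, NDUFA10 and IFIT1, 2 for NXPE3, NUDT12 and CCDC47, and 3 for RINL. With slide as a term the difference was 0.91 for NUDT12, 0.58 for IFIT1 and 0.15 for NDUFA10, none of them called.

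**Figure D4:**
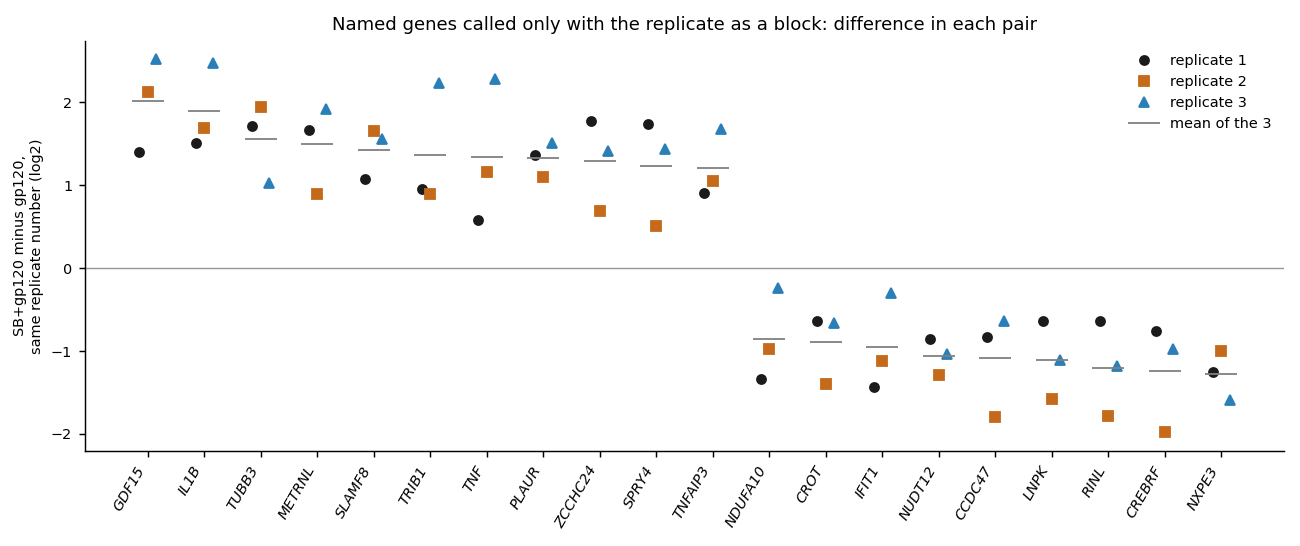
Difference between the SB203580 plus gp120 array and the gp120 array of the same replicate number (log2) for the 20 named genes called only with the replicate as a block, with the mean of the 3. All 3 pairs lie on the same side of 0 for each gene, and IFIT1 has pair differences of -1.43, -1.11 and -0.30.

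Of the 52 higher genes of the paired fit that were not low on slide 2, 41 also had positive differences in both within-slide comparisons, with LPS at 4 h and against control at 24 h (78.8%), and 39 had them in all 4 other comparisons (75%). Of the 29 lower genes, 7 were negative in both within-slide comparisons (24.1%) and 6 in all 4 (20.7%). Over all genes, with those low on slide 2 left in, the shares for both within-slide comparisons were 27.7% of those higher and 30.2% of those lower. Of the 20 paired calls low on slide 2, 6 were positive in both within-slide comparisons (30%). Of these 20, 0 were positive in all 4, which the slide 2 rule fixes. GDF15 was higher with LPS at 4 h by 1.88 (adjusted p = 0.031) and against control at 24 h by 3.03 (adjusted p = 0.000563). IL1B differed by 0.47 with LPS at 4 h (adjusted p = 0.773) and was higher by 3.13 against control at 24 h (adjusted p = 0.00195). TNFAIP3 differed by -0.21 with LPS at 4 h and was higher by 1.35 against control at 24 h (adjusted p = 0.0412).

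The gene lists share members, were chosen with earlier results of these data known, and were read by count. Of 22 AP-1 and EGR immediate-early genes, EGR1 was called and no other, 16 differences were positive, and the median was 0.22 beside 0.003 for all genes. FOS differed by 0.32 (adjusted p = 0.836) and its groups overlapped. Of 27 genes of the amino-acid stress and unfolded-protein response, TRIB3 was called and no other, with 21 positive and a median of 0.17. Of 24 mRNAs with AU-rich elements none was called and 4 rose in the paired fit (IL1B, TNF, PLAUR and TNFAIP3), with 20 positive and a median of 0.34. Over all 13582 genes, 72 rose in the paired fit (0.53%) and 6868 differences were positive. With 1 array left out, IL1B, TNF, PLAUR and TNFAIP3 kept the paired call in 2, 1, 4 and 4 of 6 fits. CXCL8, the neutrophil chemokine interleukin-8, differed by 0.62 (adjusted p = 0.748), and DUSP1, the phosphatase that turns p38 off, by -0.73 (adjusted p = 0.602).

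Of 19 pro-inflammatory cytokines, IL1B and TNF, counted above in the AU-rich list, rose in the paired fit alone. In this list 10 differences were positive and the median was 0.01. Among 24 NF-kB subunits and feedback regulators, TNFAIP3, also of the AU-rich list, rose in the paired fit alone, with a median of 0.15. Of 49 interferon-stimulated genes, IFIT1 fell in the paired fit alone, 19 were positive and the median was -0.07. Of 33 genes of the p38 pathway none was called in either fit, and MAPKAPK2, which encodes MK2, differed by 0.04 (95% interval -0.39 to 0.46). The 10 HIV-1 entry and chemokine receptor genes had no call: CD4 differed by 0.27 (adjusted p = 0.862) and CXCR4 by -1.28 (adjusted p = 0.427), with CXCR4 detected on 1 of the 3 inhibitor arrays and on all 3 gp120 arrays. CYP1B1, a target of the aryl hydrocarbon receptor, differed by -1.25 (adjusted p = 0.559), and LFNG, a Notch-modifying glycosyltransferase, by 0.82 (adjusted p = 0.28). LFNG was higher by 2.91 (adjusted p = 0.00192) with slide as a term, and by 2.03 with LPS at 4 h without that term. OLR1 and THBS1 were undetected on all 6 arrays. THBS1 differed by -0.20 here, but by -3.96 (limma, adjusted p = 4.11e-05) with slide as a term, beside -4.28 with LPS at 4 h. Values with slide as a term thus draw on groups beyond the 6 arrays, those with LPS among them. The list medians were also read without background correction, with equal array medians, in the authors' deposited log2 table and with slide as a term. In each, those of the stress response, AU-rich, NF-kB and immediate-early lists stayed above the median of all genes. This was not particular to them: the chemokines, the macrophage and scavenger receptors and the monocytic markers stayed above it too. The monocytic markers were above it by 0.06 to 0.19. The median of the interferon-stimulated genes was above it by 0.30 with slide as a term. That of the p38 pathway less the median of all genes was -0.0082 with equal array medians.

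**Figure D5:**
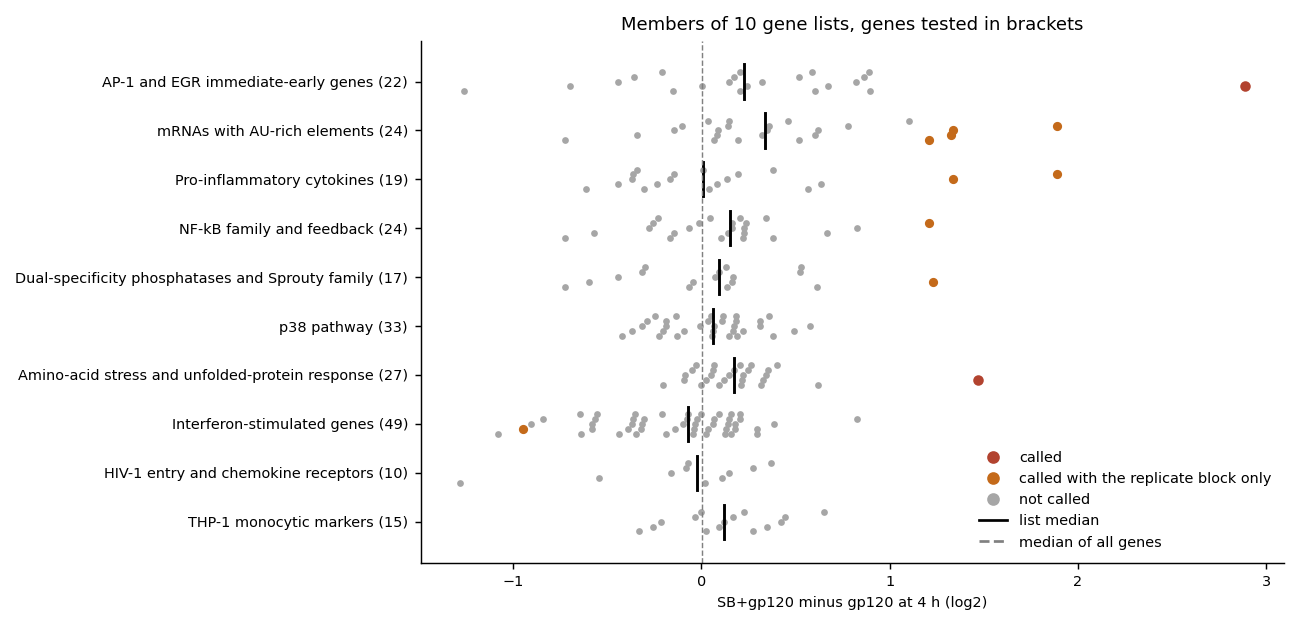
Difference (log2) of each tested member of 10 gene lists, with calls in red, calls of the paired fit alone in orange, the list's median as a bar and the median of all genes as a dashed line. EGR1 and TRIB3 are the members called, and the list of mRNAs with AU-rich elements has the highest median of the 10, 0.34.

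No effect of gp120 itself was called with or without the inhibitor. In gp120 against control at 4 h, both on slide 2, 0 genes were called by limma's test in the unpaired and the paired fit, and 261 had an unadjusted p under 0.05 (1.92%). EGR1, GPR84 and TRIB3 differed there by -0.16, -0.12 and 0.17. In SB203580 plus gp120 against SB203580 at 4 h, both on slide 3, 0 genes were called in both fits and 539 had a p under 0.05 (3.97%). The smallest p in that comparison was that of RASA2, a Ras GTPase-activating protein, with a difference of -1.57 (adjusted p = 0.833).

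Whether the inhibitor acted differently with gp120 than without was tested as an interaction, in which an additive slide effect cancels. No gene was called (limma, unpaired and paired), and 179 had an unadjusted p under 0.05 (1.32%). The interaction was 0.03 for EGR1 (95% interval -1.07 to 1.13), 0.17 for GPR84 (-0.81 to 1.14) and 0.04 for TRIB3 (-0.69 to 0.78). These intervals hold the sizes of interaction that the data leave possible for each gene. Of the 25 calls, 10 were also called for SB203580 against control at 4 h (40% of the 25 and 52.6% of the 19), and 5 of these 10 were low on slide 2. The other 5 were EGR1, GPR84, TRIB3, ST3GAL5 and AP5B1. PCDHB14 and ADAMTS14 were among the 5 smallest p-values of the interaction, at 0.83 and 1.00 (adjusted p = 1 for both).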

How the data were processed

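RNA of 36 THP-1 samples (12 groups of 3) was read on Illumina HumanHT-12 v4 arrays. The authors deposited a table of bead intensities that were not normalized, with a detection p-value per probe, and a table of log2 values. The deposited log2 values differed from log2 of the quantile-normalized intensities by a median of 0.0115 and at most 0.0986, and were used as an alternative only. GeneSpring GX is named per the labels, and 72 columns of bead numbers and bead errors were not used. The members and gene lists were chosen with earlier results of these data known.

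Intensities were corrected and quantile-normalized with neqc in limma 3.58.1 (R 4.3.3, offset 16). Probes with a detection p under 0.05 on at least 3 arrays were kept (26473 of 47222). Of all probes, 30112 had 1 symbol, 8 had several and 17102 had none in the platform annotation, and 30073 were matched by gene ID to current symbols. The brightest probe stood for each of 13582 genes. A model with a mean for each group covered the 36 arrays (24 residual degrees of freedom) with lmFit and eBayes, and p-values were adjusted by Benjamini-Hochberg over all genes. The scripts were tested on simulated data.

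The genes named were the called genes with the largest rises and falls, called list members, fixed genes, and the same for the paired fit. Same-numbered arrays of the 2 groups correlated in their deviations from the group means (0.54, 0.13 and 0.56), and on this check from the data the replicate within each time served as the pairing. Promoter windows came from RefSeq on GRCh38.p14. Permuting 3 arrays against 3 exactly gives no p below 0.1, so it was not used. The number of arrays limits the precision.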

Additional observations from a re-analysis of the deposited data

Results flagged for a closer look

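For 13 of the 25 called genes, the difference made by SB203580 in gp120-treated cells itself differed between 4 h and 24 h in a limma test of the difference, a contrast added after the data were seen that called 147 of all genes (1.08%). With slide as a term the same contrast called 2 genes. Slide enters this contrast for every gene. Of the 13, 11 were low in all groups of slide 2, which held the gp120 group at 4 h and the SB203580 plus gp120 group at 24 h, so that for them time and slide cannot be told apart. The rule that picked these 11 makes their 4 h difference positive and their 24 h difference negative. The sign of their contrast was thus fixed in advance, and the values restate that rule. The 4 h difference minus the 24 h difference was 3.66 for EZR-AS1, 3.08 for SIPA1L1, 2.96 for LINC01102, 2.89 for DPP10, 2.81 for PLEKHN1 and 2.69 for KCNQ1OT1. It was 2.43 for C17orf47, 2.22 for CNTNAP5, 2.00 for DEFB125, 1.37 for CAPN12 and 1.17 for C17orf99. The 2 others were near the limit of detection: 1.17 for ADAMTS14 (adjusted p = 0.0297) and 0.95 for PCDHB14 (adjusted p = 0.0415). EGR1 had a value of 1.32 (adjusted p = 0.232).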

How the results depend on the processing

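The 25 calls became 14 without the genes low on slide 2, 8 with arrays scaled to equal medians (which moved the median of all genes to -0.24), 38 with no detection filter, 12 with the 4 h arrays alone, 0 with only the groups compared, and 46 with slide as a term. They became 101 with the replicate block within each time and 43 with a block shared by both times. Leaving out 1 array gave 13 (without gp120 replicate 3) to 49 calls (without SB203580 plus gp120 replicate 1), with 14 without SB203580 plus gp120 replicate 3, and with the pairing 35 to 151 (64 without either of gp120 replicates 1 and 2, and 151, 56 and 40 without SB203580 plus gp120 replicates 1, 2 and 3), an alternative chosen after seeing the data. The 11 calls low on slide 2 became 6 with equal medians, 20 with the replicate block, 6 with the 4 h arrays, and 0 with only the groups compared or with slide as a term. The 19 calls of SB203580 against control at 4 h became 9 without background correction and in the authors' table, 6 with equal medians, 59 and 32 with the 2 blocks, 6 with only the groups compared, 4 with the 4 h arrays, 8 with slide as a term, and 5 to 10 with 1 array left out. SB203580 plus gp120 against SB203580 gave 0 to 1 with 1 array left out. Of the 25 calls, with slide as a term the direction turned, uncalled, for C17orf47 (-0.86), DEFB125 (-0.999), EZR-AS1 (-0.72), PCDHB14 (-0.49) and TTC22 (0.53). Among named genes not called it also turned for NUDT12 (0.91), IFIT1 (0.58), NDUFA10 (0.15), DUSP1 (1.05), CD4 (-0.57) and MAPKAPK2 (-0.16). That term took SB203580 plus gp120 against gp120 at 24 h from 630 calls to 0, and the difference between times from 147 to 2. The cause was not tested. In the model with that term, the inhibitor's effect could differ by stimulus and by time. Its change from 4 h to 24 h was assumed to be the same for each stimulus. Any difference in that change between stimuli would enter the slide term. The values from that model draw on all groups, those with LPS among them. Over all settings, 338 of 490 values of called genes kept their call and direction, 147 lost the call and 5 turned. EGR1 ranged from 1.90 to 3.21. Probes near background limit what can be said of PCDHB14, ADAMTS14, TTC22 and the genes low on slide 2.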

Other observations

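Among lists not described above, the 402 tested genes named ZNF, mostly zinc-finger transcription factors, had 123 positive differences and a median of -0.12, with none called in either fit. The 3 inhibitor arrays lay below the 3 gp120 arrays for 50 of the 402 and above for 12. Over all 13582 genes they lay below for 751 (5.53%) and above for 947 (6.97%). Their median was -0.12 for SB203580 against control at 4 h, -0.10 with LPS at 4 h and -0.06 against control at 24 h. The 15 tested genes of the Notch pathway had 11 positive differences and a median of 0.19, and the 28 of glycolysis and hypoxia 20 and a median of 0.11, again with no call. With slide as a term the Notch median was -0.19 and that of glycolysis and hypoxia 0.02, so the direction of the Notch list turned, while that of the ZNF genes was -0.12.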
